A study of Mus musculus with 8 samples.

Results

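The genes described here are the Wnt ligands and the proteins that release, receive or block them at the cell surface. They were chosen by gene symbol: the Wnt, Frizzled (Fzd), Sfrp, Dkk, R-spondin (Rspo) and Lgr4 to Lgr6 families, together with Lrp5, Lrp6, Ror1, Ror2, Ryk, Wls and Porcn. That gave 51 of the 48440 genes in the table, of which 35 had enough counts for the fit of 17739 genes. The polyadenylated RNA of mouse embryonic stem cells (129/Ola) was sequenced in a parental line, CTNNB1+/+, and in a line knocked out for β-catenin, CTNNB1-/-, where the gene is Ctnnb1. Both lines received the GSK3 inhibitor CHIR99021 (3 μM) or its vehicle DMSO (0.3 μl/ml) over 72 hours, with 2 libraries in each of the 4 groups. All groups grew without feeder cells on gelatin in DMEM with serum.

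Wnt proteins are secreted signals. Porcn, an acyltransferase of the endoplasmic reticulum, attaches the lipid that Wnt proteins need, and Wls carries the lipid-bearing protein to the surface. There a Frizzled receptor binds it, with the co-receptors Lrp5 or Lrp6 for the branch that stabilises β-catenin, or with Ror1, Ror2 or Ryk for other branches. R-spondins, bound by Lgr4 to Lgr6, raise the amount of Frizzled at the surface, and the Sfrp and some Dkk proteins are secreted inhibitors. CHIR99021 acts below the receptors, since GSK3 marks β-catenin for destruction. In mouse embryonic stem cells the pathway is known to support self-renewal.

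The libraries held 23650572 to 27680649 estimated counts, and log2 levels correlated at 0.9866 to 0.9894 across genes between replicates of a group. Levels are given as CPM, counts scaled to a common library total. Ctnnb1 was at 813.4 to 905.6 CPM in the 4 parental libraries and at 7.98 to 10.7 CPM in the 4 knock-out libraries. The summed level of 8 embryonic stem cell markers lay between 5154 and 5828 CPM in the 8 libraries. Of 8 fibroblast markers, Postn, Dcn and Lum had 0 counts in all libraries, while Pdgfrb lay between 4.29 and 13.6 CPM, Thy1 between 3.78 and 8.06 CPM and Col1a1 between 1.25 and 2.31 CPM. The labels do not name separate cultures behind the replicates, so the spread that p-values rest on may be technical. Each genotype is a single line, so an effect of β-catenin and another difference between the lines cannot be told apart.

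Most of the pathway's surface proteins were present as transcripts, whereas the ligands were scarce. Per kilobase of exon, averaged over all libraries, the highest levels were those of the inhibitor Sfrp1 (37.7 CPM per kb), the receptors Fzd5 (33.0 CPM per kb) and Fzd7 (23.0 CPM per kb), and the pseudokinase receptor Ryk (11.7 CPM per kb). Porcn (9.75 CPM per kb), Lgr4 (9.70 CPM per kb) and Fzd10 (9.01 CPM per kb) followed, and their order changed between groups. Lrp5, Lrp6 and Ror2 came next, at 6.63, 5.75 and 4.61 CPM per kb. These 10 genes led by either measure of gene length. The highest ligand was Wnt6, at 1.86 CPM per kb. All 19 ligands together summed to 3.87 to 5.61 CPM per kb in a library, of which Wnt6 made up 32.7% to 52.1%. The level of Wls depends on its gene model, at 1.10 CPM per kb over all annotated exons and 2.72 CPM per kb over the longest transcript.

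**Figure D1:**
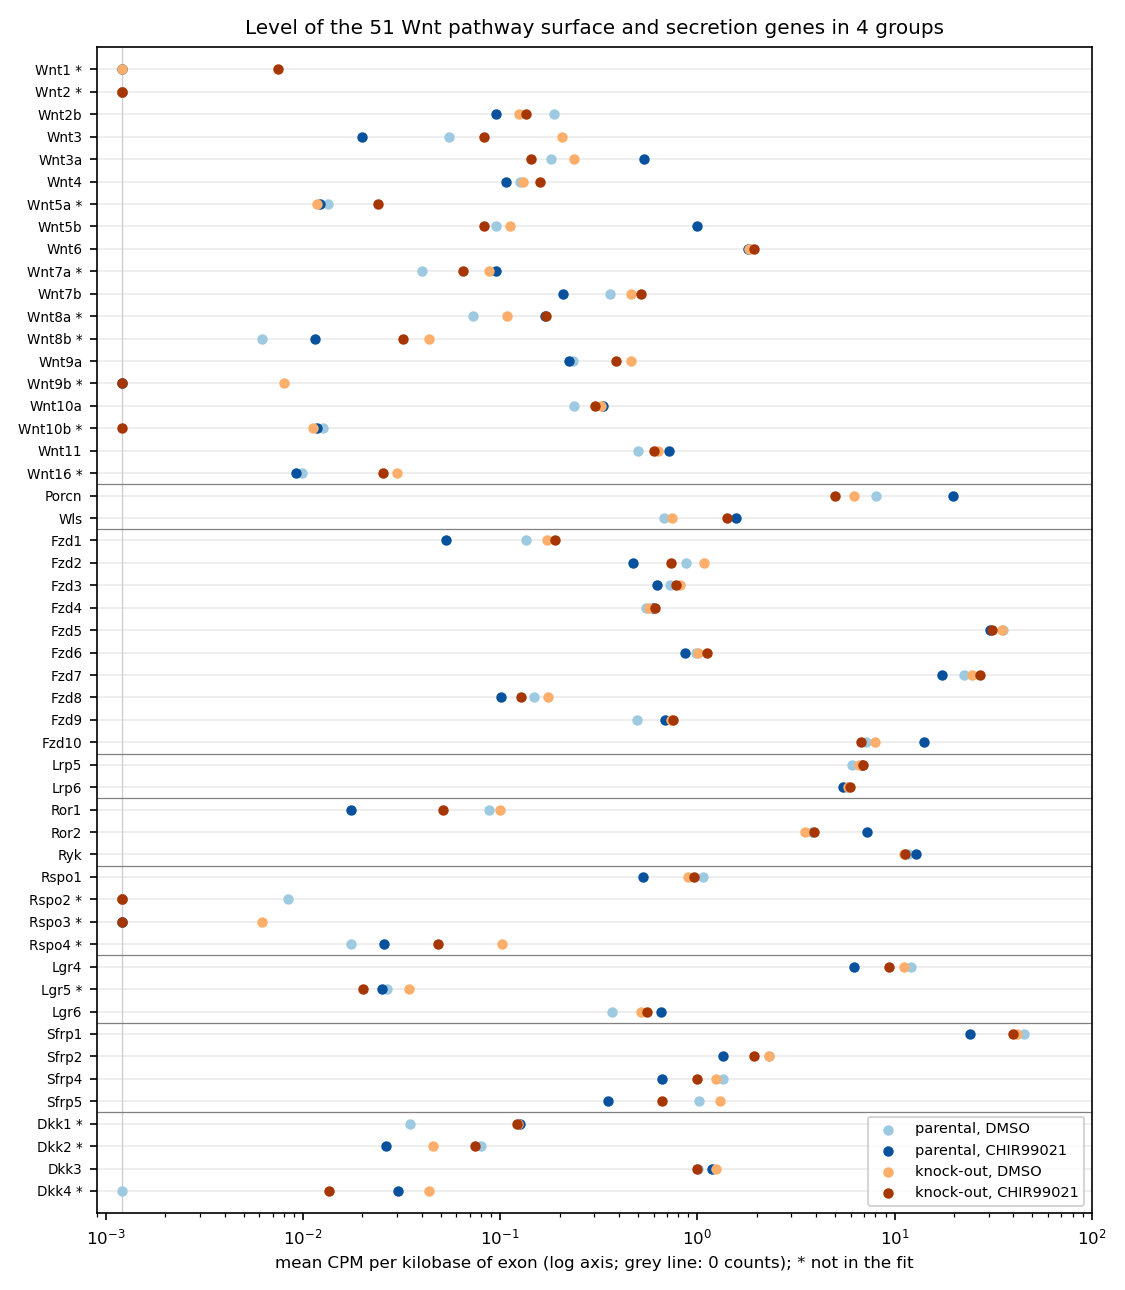
Mean level of each of the 51 genes in the 4 groups (2 libraries each), as CPM per kilobase of exon on a log axis, ordered by role; an asterisk marks genes outside the fit and the grey line marks 0 counts. Sfrp1, Fzd5 and Fzd7 lie at 17.5 CPM per kb or more in every group, as Porcn does in parental cells with CHIR99021 (19.7 CPM per kb), and most ligands lie below 1 CPM per kb.

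The 16 genes that did not reach the fit were ligands, R-spondins, Lgr5 and Dkk inhibitors: Wnt1, Wnt2, Wnt5a, Wnt7a, Wnt8a, Wnt8b, Wnt9b, Wnt10b, Wnt16, Rspo2, Rspo3, Rspo4, Lgr5, Dkk1, Dkk2 and Dkk4. Their highest value in any library was 0.418 CPM. Wnt2 had 0 counts throughout. Of them 7 never exceeded 3 counts, a floor that corresponds to 0.107 to 0.129 CPM, so differences between groups were not detectable at this depth. Every Frizzled, Lrp, Ror, Ryk, Sfrp, Porcn and Wls gene of the rule was in the fit.

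The first comparison asked what CHIR99021 did where β-catenin was present. In parental cells the 2 genes of Wnt secretion, Porcn and Wls, rose 2.45-fold and 2.32-fold, and the receptors Fzd10 and Ror2 rose 1.97-fold and 1.90-fold. All 4 Sfrp inhibitors fell, Sfrp1 by 46.5%, and so did the R-spondin receptor Lgr4, by 48.6%. Of the 35 genes tested 18 passed an adjusted p of 0.05 (51.4%, with 19.4% of all genes tested), 7 higher (20%, with 9.1% of all genes) and 11 lower (31.4%, with 10.3% of all genes). The median absolute log2 fold change was 0.80 among the 35 and 0.18 over all genes tested. These counts describe the list and are not a test of it. They include Wnt5b, which entered the fit only through parental cells with CHIR99021, where it was high.

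Porcn (chromosome X, 8193848 to 8206525, GRCm38) stood at 24.1 and 24.3 CPM in the parental libraries with DMSO, and at 59.8 and 58.5 CPM with CHIR99021. In the knock-out it stood at 18.4 and 19.0 CPM with DMSO and at 15.4 and 14.4 CPM with CHIR99021. Parental libraries with CHIR99021 were thus far above the other 6, and the knock-out libraries with CHIR99021 were the lowest. The log2 fold change with CHIR99021 was 1.29 ± 0.06 (SE; adjusted p = 8.91e-08) in parental cells and -0.32 ± 0.06 (adjusted p = 0.0149) in the knock-out. The difference between the 2 responses, knock-out minus parental, was -1.61 ± 0.09 (adjusted p = 2.46e-06). The fall in the knock-out did not pass without the knock-out DMSO replicate 1 (adjusted p = 0.0597), CHIR99021 replicate 1 (0.0507) or CHIR99021 replicate 2 (0.122). Nor did this fall pass with the compared groups alone or by DESeq2. Porcn was also the one gene of the 35 that differed between the lines with DMSO, at -0.37 ± 0.06 (adjusted p = 0.00582).

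Wls (chromosome 3, 159839672 to 159938664) followed another course. Its levels were 5.58 and 6.31 CPM in parental cells with DMSO and 13.5 and 14.1 CPM with CHIR99021, against 6.16 and 6.98 CPM in the knock-out with DMSO and 12.6 and 12.4 CPM with CHIR99021. In both lines the libraries with CHIR99021 lay above those with DMSO without overlap. The log2 fold change was 1.21 ± 0.10 in parental cells (adjusted p = 9.72e-06) and 0.92 ± 0.10 in the knock-out (adjusted p = 0.00064). The responses differed by -0.29 ± 0.14, which did not pass (adjusted p = 0.29) and does not show that they were alike. Summed per kilobase of all annotated exons, Porcn and Wls went from 8.66 and 8.81 to 21.5 and 21.1 CPM per kb in parental cells. In the knock-out they went from 6.83 and 7.13 to 6.58 and 6.22 CPM per kb. That length is 8792 bases for Wls, against 3559 bases for its longest transcript. The small change in the knock-out thus depends on the gene model and is not read as a fall.

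**Figure D2:**
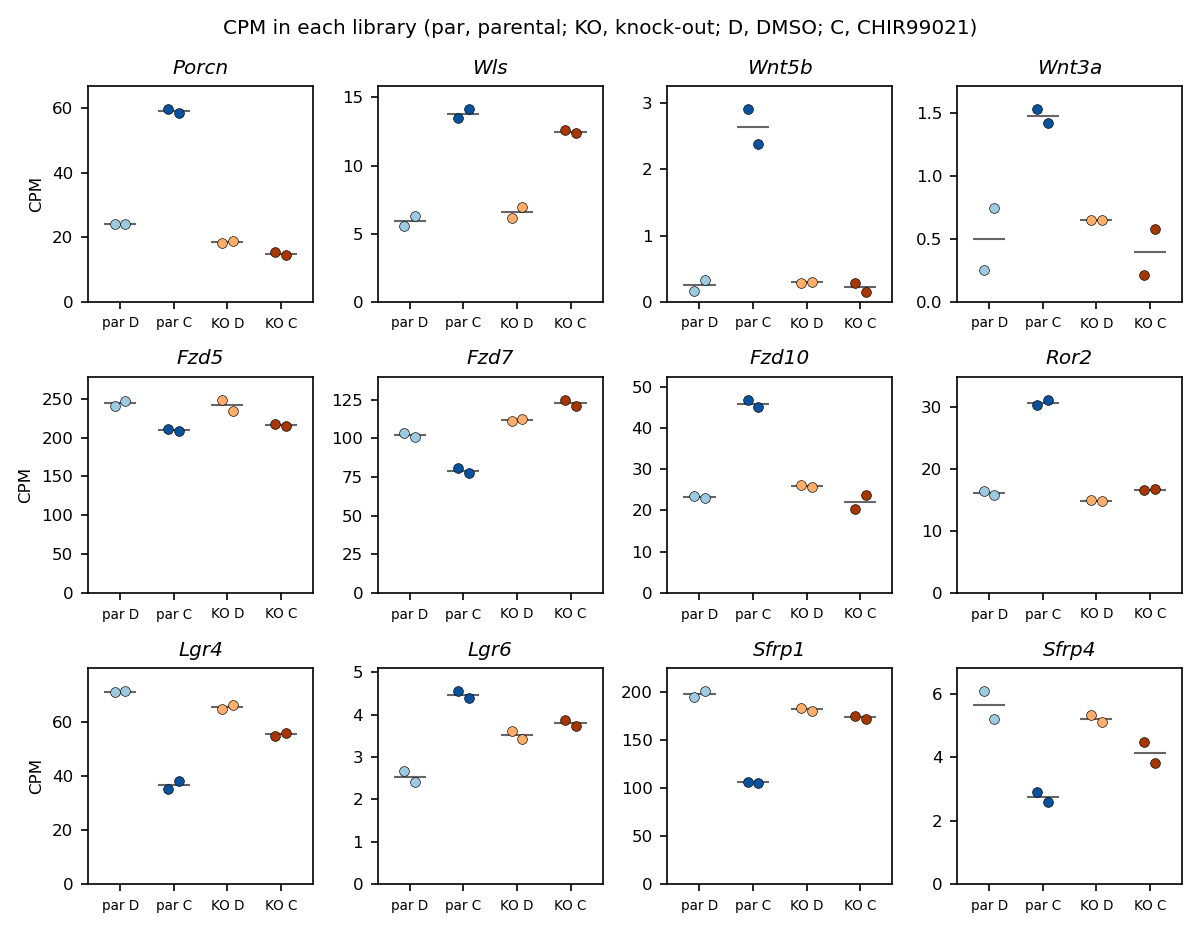
CPM of 12 genes in each of the 8 libraries (points; the line is the group mean of 2 libraries), on linear axes from 0. For Porcn, Wnt5b, Fzd10 and Ror2 the parental libraries with CHIR99021 are the highest, for Lgr4, Sfrp1, Sfrp4 and Fzd7 they are the lowest, and for Wls both lines rise with CHIR99021.

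Among the ligands 10 of 19 were tested and 3 were called in parental cells. Wnt5b (chromosome 6, 119432531 to 119544347, minus strand), a ligand known mainly for β-catenin-independent signalling, had 4 and 8 counts with DMSO and 76 and 57 with CHIR99021 (0.172 and 0.332 CPM against 2.91 and 2.38 CPM). In the knock-out it had 8 and 8 counts with DMSO and 8 and 4 with CHIR99021. Only the parental libraries with CHIR99021 were high. The ratio of summed counts was 10.5 (95% interval 5.82 to 20.8, counting error only), and the log2 fold change was 3.36 ± 0.39 (adjusted p = 0.00011). The responses of the lines differed by -3.78 ± 0.66 (adjusted p = 0.00568). Wnt5b entered the fit only through the group where it was high, so its test had to favour a difference. Fbxl14, which overlaps it on the opposite strand and averaged 35 CPM, moved by 0.17 ± 0.06 in parental cells (adjusted p = 0.0755), and its own responses differed between the lines by -0.37 ± 0.09 (adjusted p = 0.0269). Whether the counting used strand is not stated, and its part in the Wnt5b counts was not tested.

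Wnt3a, a ligand of the β-catenin branch, was at 0.258 and 0.747 CPM in parental cells with DMSO and at 1.53 and 1.42 CPM with CHIR99021. In the knock-out its levels were 0.653 and 0.649 CPM with DMSO and 0.213 and 0.579 CPM with CHIR99021. Highest were the parental libraries with CHIR99021, and the parental DMSO replicates were far apart. The log2 fold change of 1.54 ± 0.48 (adjusted p = 0.0461) did not hold without the parental DMSO replicate 1 (0.98, adjusted p = 0.247), and also failed without either parental CHIR99021 library (0.161 and 0.112) or either knock-out DMSO library (0.0595 and 0.0598). DESeq2 gave an adjusted p of 0.129. The response of Wnt3a did not differ between the lines at the threshold (-2.27 ± 0.72, adjusted p = 0.0976). This difference did pass with no filter beyond 1 read and without the parental DMSO replicate 2.

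Wnt7b was at 1.72 and 1.83 CPM with DMSO and 1.11 and 0.920 CPM with CHIR99021 in parental cells, and at 2.28, 2.25, 2.84 and 2.20 CPM in the knock-out libraries with DMSO and then CHIR99021. The 2 parental libraries with CHIR99021 were the lowest of the 8. Its log2 fold change of -0.80 ± 0.25 (adjusted p = 0.0429) did not pass when any 1 parental library was left out (adjusted p 0.0855 to 0.176) or either knock-out DMSO library (0.0541 and 0.0562). It also failed with the compared groups alone (0.0763) and by DESeq2 (0.242). For the other 7 tested ligands the test was not passed. Wnt6, the highest, stayed between 3.44 and 4.68 CPM in all 8 libraries. Wnt11, a ligand known for cell movements in gastrulation, was at 2.15 and 1.99 CPM with DMSO and 3.18 and 2.76 CPM with CHIR99021 in parental cells (log2 fold change 0.52 ± 0.19, adjusted p = 0.078). Wnt3, at 1 to 17 counts, entered the fit only through the knock-out with DMSO.

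The DNA-binding partners of β-catenin, the TCF/LEF factors, bind a core that reads CTTTGAT or CTTTGAA, so these letters were searched for on both strands (as ATCAAAG or TTCAAAG on the other) in the windows around RefSeq gene starts, 250 bases before to 50 bases after the start. Of the 51 genes 33 had a window, 36 windows in all; the other 18, Porcn, Sfrp1, Sfrp4, Fzd2 and Wnt7b among them, were not searched. A core stood in 3 of these 36 windows (8.33%) and in 8.65% of all 32851 windows (CTTTGAT or ATCAAAG in 3.73%, CTTTGAA or TTCAAAG in 5.14%). The genes were Wnt5b, Wnt11 and Dkk1. Of the genes that rose with CHIR99021 in parental cells 6 had a window and 1 of them, Wnt5b, had a core; of those that fell 7 had a window and 0 had one. Shown are the 250 bases before the start of Wnt5b (chr6:119449387-119449636, minus strand) and of Wnt11 (chr7:98834862-98835111, plus strand) from RefSeq (GRCm38.p6), the 2 ligands of the fit with a core, with the core in capitals.

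Wnt5b: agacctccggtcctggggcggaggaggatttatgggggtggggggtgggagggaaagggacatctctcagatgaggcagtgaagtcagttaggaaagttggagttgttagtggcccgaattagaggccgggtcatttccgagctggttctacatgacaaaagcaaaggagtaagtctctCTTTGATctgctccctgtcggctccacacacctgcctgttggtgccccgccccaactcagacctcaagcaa
Wnt11: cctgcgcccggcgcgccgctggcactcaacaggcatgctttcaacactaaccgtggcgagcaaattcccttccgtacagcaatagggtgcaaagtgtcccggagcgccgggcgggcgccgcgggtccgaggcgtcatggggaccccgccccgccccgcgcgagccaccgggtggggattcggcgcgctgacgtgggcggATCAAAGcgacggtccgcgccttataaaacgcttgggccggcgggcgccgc

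The core of Wnt5b lies 71 bases before the start of 1 of its 3 windows, and that of Wnt11 lies 51 bases before the start of 1 of its 2 windows. Counts per gene do not say which start was used, and a match of letters is a description, not a binding site.

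For the Frizzled receptors CHIR99021 shifted the balance between members of the family in parental cells. Fzd10 (chromosome 5, 128600844 to 128604093) stood at 23.4 and 23.1 CPM with DMSO and at 46.7 and 45.0 CPM with CHIR99021, against 26.1 and 25.7 CPM in the knock-out with DMSO and 20.4 and 23.7 CPM with CHIR99021. Only the parental libraries with CHIR99021 were high. Fzd10 rose by 0.98 ± 0.07 on the log2 scale in parental cells (adjusted p = 3.29e-06), and its responses differed between the lines by -1.21 ± 0.10 (adjusted p = 4.5e-05).

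The 2 most abundant Frizzled genes went the other way. Fzd7 (chromosome 1, 59482424 to 59486955), a receptor studied in stem cell self-renewal, was at 103.8 and 100.9 CPM in parental cells with DMSO and 80.7 and 77.6 CPM with CHIR99021. In the knock-out it was at 111.5 and 112.9 CPM with DMSO and at 124.8 and 121.1 CPM with CHIR99021. Lowest were the parental libraries with CHIR99021 and highest the knock-out libraries with CHIR99021. It fell by 22.7% in parental cells (log2 fold change -0.37 ± 0.04, adjusted p = 0.000106), and the responses differed by 0.50 ± 0.06 (adjusted p = 0.000472). Fzd5 (chromosome 1, 64730558 to 64737751) was at 241.2 and 247.1 CPM with DMSO and 211.5 and 208.4 CPM with CHIR99021 in parental cells, and at 248.2 and 234.6 CPM and then 217.3 and 215.5 CPM in the knock-out. It was lower with CHIR99021 in both lines, by 0.22 ± 0.04 (adjusted p = 0.00286) and 0.16 ± 0.04 (adjusted p = 0.0374) on the log2 scale. The knock-out value did not pass without any 1 of 7 libraries: adjusted p was 0.231, 0.148 and 0.191 without the knock-out DMSO replicate 1 and CHIR99021 replicates 1 and 2, and 0.0514 to 0.0585 without any 1 of the 4 parental libraries.

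Fzd5 and Fzd7 together made up 84.0% and 83.8% of the Frizzled sum per kilobase in parental cells with DMSO and 73.2% in both libraries with CHIR99021. The share of Fzd10 was 10.5% and 10.3% with DMSO and 21.7% and 21.5% with CHIR99021. In the 4 knock-out libraries Fzd5 and Fzd7 made up 82.6% to 84.7% and Fzd10 9.01% to 11.1%. The sum itself was 64.5 to 73.2 CPM per kb in the 8 libraries.

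**Figure D3:**
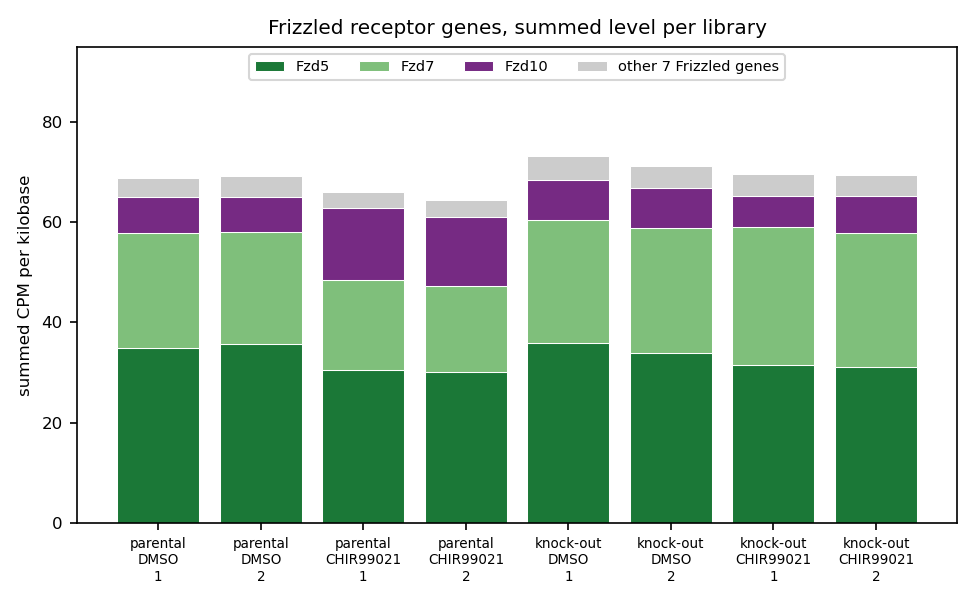
Summed level of the 10 Frizzled genes in each library, in CPM per kilobase, stacked by gene on a linear axis from 0. The parental libraries with CHIR99021 have the largest Fzd10 segment, 21.7% and 21.5% of the sum, while the sums lie between 64.5 and 73.2 CPM per kb.

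Fzd2 was at 2.66 and 3.78 CPM with DMSO and 1.57 and 1.88 CPM with CHIR99021 in parental cells, and at 4.1 and 3.85 CPM and then 2.81 and 2.55 CPM in the knock-out. The parental libraries with CHIR99021 were the lowest. Its log2 fold change in parental cells was -0.90 ± 0.22 (adjusted p = 0.0142), with adjusted p = 0.125 without the parental DMSO replicate 2 and 0.0941 without the CHIR99021 replicate 1, and 0.0606 by DESeq2. Fzd1, Fzd3, Fzd4, Fzd6, Fzd8 and Fzd9 were not called for CHIR99021 in parental cells. Fzd3 was at 10.05 and 8.63 CPM with DMSO and 7.16 and 8.91 CPM with CHIR99021 in parental cells, and at 10.1, 10.9, 10.05 and 9.81 CPM in the knock-out. Fzd6 was at 4.72 and 4.77 CPM, then 4.37 and 3.97 CPM in parental cells, and at 4.93, 4.73, 5.68 and 5.14 CPM in the knock-out. For both genes the values of parental cells with CHIR99021 overlapped or lay just under those with DMSO.

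Neither Lrp co-receptor was called in any of the 5 comparisons. Lrp5 was at 56.8 and 61.3 CPM, then 68.5 and 65.4 CPM in parental cells with DMSO and CHIR99021, and at 66.6, 62.6, 69.7 and 65.5 CPM in the knock-out libraries. Lrp6 was at 77.5 and 79.6 CPM, then 73.1 and 77.4 CPM in parental cells, and at 76.7, 81.4, 83.8 and 79.0 CPM in the knock-out. The parental response was 0.18 ± 0.06 for Lrp5 (adjusted p = 0.0512; 0.0478 with relative log expression size factors, 0.033 with no filter on low counts, and 0.0445 or 0.0488 without the knock-out DMSO replicate 1 or 2) and -0.06 ± 0.05 for Lrp6. Per kilobase of all annotated exons Lrp5 made up 50.7% to 56.8% of their sum. Over the longest transcript Lrp5 averaged 7.26 and Lrp6 8.39 CPM per kb, so which of them leads depends on the gene model.

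Of the receptors of kinase type, Ror2 (chromosome 13, 53109312 to 53286124), a receptor for Wnt5a, stood at 16.5 and 15.8 CPM with DMSO and 30.3 and 31.1 CPM with CHIR99021 in parental cells, and at 14.9, 14.8, 16.6 and 16.7 CPM in the knock-out libraries. Only the parental libraries with CHIR99021 were high. Ror2 rose by 0.93 ± 0.06 (adjusted p = 1.9e-06), and the responses differed by -0.76 ± 0.09 (adjusted p = 0.000504). Ror1 had few counts, 11 and 13 counts with DMSO and 2 and 3 with CHIR99021 in parental cells, and 17, 14, 8 and 8 in the knock-out. The ratio of summed counts was 0.197 (95% interval 0.0588 to 0.528), and the log2 fold change was -2.28 ± 0.57 (adjusted p = 0.0173). It did not pass without either parental DMSO library (0.0548 and 0.0827) or the parental CHIR99021 replicate 1 (0.115). Ryk was at 53.4 and 52.3 CPM with DMSO and 58.2 and 58.4 CPM with CHIR99021 in parental cells, and at 50.4, 50.9, 50.2 and 52.5 CPM in the knock-out; its parental response was 0.14 ± 0.05 (adjusted p = 0.059).

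In the R-spondin arm Lgr4 carried most of the receptor transcript. Lgr4 (chromosome 2, 109917647 to 110014257) was at 71.0 and 71.3 CPM in parental cells with DMSO and at 35.2 and 37.9 CPM with CHIR99021. In the knock-out it was at 64.7 and 66.0 CPM with DMSO and at 54.6 and 55.9 CPM with CHIR99021. The parental libraries with CHIR99021 were the lowest, and the knock-out libraries with CHIR99021 were next. Lgr4 fell by 0.96 ± 0.05 on the log2 scale in parental cells (adjusted p = 3.23e-07) and by 0.24 ± 0.05 in the knock-out (adjusted p = 0.0162), and the responses differed by 0.72 ± 0.07 (adjusted p = 0.000137). The knock-out value did not pass without any 1 of the 4 knock-out libraries (adjusted p 0.0506 to 0.116).

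Lgr6 had the opposite direction at a lower level, with 2.66 and 2.41 CPM with DMSO and 4.56 and 4.39 CPM with CHIR99021 in parental cells and 3.63, 3.43, 3.87 and 3.75 CPM in the knock-out. Among the 8 the parental libraries with CHIR99021 were the highest and those with DMSO the lowest. It rose by 0.82 ± 0.15 (adjusted p = 0.00329), while the difference between the responses was -0.71 ± 0.21 (adjusted p = 0.08). Lgr4 made up 96.7% and 96.9% of the receptor sum per kilobase in parental cells with DMSO and 89.6% and 90.7% with CHIR99021. Rspo1, the one R-spondin in the fit, was at 1.5 and 2.61 CPM with DMSO and 0.958 and 1.09 CPM with CHIR99021 in parental cells, and at 1.56, 1.91, 2.13 and 1.58 CPM in the knock-out. Its log2 fold change of -1.01 ± 0.31 (adjusted p = 0.0448) did not pass without the parental DMSO replicate 2 (-0.56, adjusted p = 0.341), either parental CHIR99021 library (0.184 and 0.108) or any 1 knock-out library (0.0519 to 0.0547). It also failed with the compared groups alone (0.0667) and by DESeq2 (0.145).

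All 4 Sfrp genes of the rule fell with CHIR99021 in parental cells; Frzb, known by the older name Sfrp3, is outside the rule and was not in the fit. Sfrp1 (chromosome 8, 23411502 to 23449632), which had the highest level per kilobase of the 51 genes over the 8 libraries, was at 195.4 and 201.0 CPM with DMSO and 106.2 and 105.8 CPM with CHIR99021, against 183.2, 180.8, 175.3 and 172.5 CPM in the knock-out libraries. At the low end stood the parental libraries with CHIR99021 alone. The parental response was -0.90 ± 0.04 (adjusted p = 5.78e-08), and the responses differed by 0.84 ± 0.05 (adjusted p = 5.93e-06). Summed per kilobase, the Sfrp genes were at 49.0 and 51.1 CPM per kb in parental cells with DMSO and 26.8 and 26.4 CPM per kb with CHIR99021, and Sfrp1 made up 89.4% to 92% of the sum in every library.

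Sfrp4 was at 6.10 and 5.23 CPM with DMSO and 2.91 and 2.59 CPM with CHIR99021 in parental cells, and at 5.33, 5.11, 4.48 and 3.82 CPM in the knock-out. Sfrp2 was at 4.29 and 5.64 CPM, then 2.87 and 2.93 CPM in parental cells, and at 4.82, 5.11, 4.16 and 4.21 CPM in the knock-out. For both genes the parental libraries with CHIR99021 were the lowest of the 8. Sfrp4 fell by 1.04 ± 0.16 (adjusted p = 0.000762) and Sfrp2 by 0.78 ± 0.16 on the log2 scale (adjusted p = 0.00663; 0.0751 without the parental DMSO replicate 2). Sfrp5, at 1.59 and 2.28 CPM with DMSO and 0.881 and 0.460 CPM with CHIR99021, fell by 1.51 ± 0.38 (adjusted p = 0.0165; 0.11 without the parental DMSO replicate 2 and 0.105 without the CHIR99021 replicate 2). In the knock-out it was at 2.50, 2.44, 0.888 and 1.62 CPM. Dkk3, the one Dkk gene in the fit, lay between 3.17 and 4.24 CPM in the 8 libraries and was not called.

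Markers of other cell types moved with the parental response. The summed level of 8 primitive streak and mesoderm markers was 5.73 to 6.27 CPM in parental cells with DMSO and 44.8 to 46.9 CPM with CHIR99021, and 5.48 to 7.76 CPM in the knock-out; 2 of its 8 genes rose, and Mesp1, Tbx6, Gsc and Evx1 stayed under 1 CPM in every library. The sum of 8 neural markers was 123.1 to 127.4 CPM with DMSO and 61.8 to 63.3 CPM with CHIR99021 in parental cells, with 5 of 8 lower and Neurog2 at 0 in every library. In the knock-out the neural sum was 120.5 to 130.0 CPM with DMSO and 102.6 to 104.9 CPM with CHIR99021, with 3 of 8 lower. The sum of 8 trophoblast markers went from 64.9 to 66.9 CPM up to 96.1 to 103.1 CPM in parental cells, with 3 of 8 higher and 1 lower, and was 58.9 to 67.7 CPM in the knock-out. Eomes is on both the streak and the trophoblast list, at 1.42 and 1.54 CPM with DMSO and 30.5 and 30.4 CPM with CHIR99021 in parental cells. Without it the trophoblast sum was 63.5 and 65.4 CPM with DMSO and 72.6 and 65.8 CPM with CHIR99021, so Eomes made up most of that difference. Fibroblast markers summed to 9.40 to 11.1 CPM with DMSO and 20.4 to 21.95 CPM with CHIR99021 in parental cells, with 2 of 8 higher, and to 13.3 to 17.2 CPM in the knock-out. The 8 endoderm markers summed to 22.6 to 23.2 CPM with DMSO and 13.5 to 14.9 CPM with CHIR99021 in parental cells, with 1 of 8 higher and 1 lower. Sox7 made up most of that difference, at 14.3 and 13.9 CPM with DMSO and 4.14 and 5.35 CPM with CHIR99021. In the knock-out the endoderm sum was 28.4 to 31.6 CPM, and 3 of 8 were higher than in parental cells with DMSO. The embryonic stem cell sum was 5815 to 5828 CPM with DMSO and 5279 to 5417 CPM with CHIR99021 in parental cells, with 6 of 8 lower, and 5154 to 5622 CPM in the knock-out. The part of these cells in the values above was not tested, and in bulk samples fewer cells of a type and less RNA per cell cannot be told apart.

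With β-catenin absent few of these genes were called for CHIR99021, at a share not far from that of all genes. In the knock-out Wls rose and Porcn, Fzd5 and Lgr4 fell, with the values given above. That is 4 of 35 (11.4%, with 7.06% of all genes tested), 1 higher (2.88% of all genes) and 3 lower (4.18% of all genes). The median absolute log2 fold change was 0.16 among the 35 and 0.14 over all genes. Unadjusted p was under 0.05 for 11 of the 35. The share of all genes at that unadjusted threshold is not given here, so this count is not read as an excess. No ligand, Ror, Ryk, Lrp, Sfrp or Dkk gene passed, which does not show that they were unchanged. Sfrp5 (-0.98 ± 0.33, adjusted p = 0.104) and Fzd2 (-0.57 ± 0.20, adjusted p = 0.116) had the direction of their parental response. Fzd10 (-0.23 ± 0.07, adjusted p = 0.0827) and Fzd7 (0.13 ± 0.04, adjusted p = 0.0826) had the opposite one.

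The test of the difference between the 2 responses was passed by 7 of the 35 genes (20%, with 6.13% of all genes), 3 higher in the knock-out response (8.57%, with 3.22% of all genes) and 4 lower (11.4%, with 2.91% of all genes). The 4 were Wnt5b, Porcn, Fzd10 and Ror2, which rose in parental cells; of these Wnt5b passed the filter on low counts in parental cells with CHIR99021 alone, the group where it was high. The 3 were Fzd7, Lgr4 and Sfrp1, which fell there. Of the 18 genes called in parental cells 11 did not pass this test, among them Wls, Fzd5, Lgr6 and the inhibitors Sfrp2, Sfrp4 and Sfrp5. For Sfrp4 the difference was 0.71 ± 0.22 (adjusted p = 0.084). These comparisons share their libraries and are not separate evidence.

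**Figure D4:**
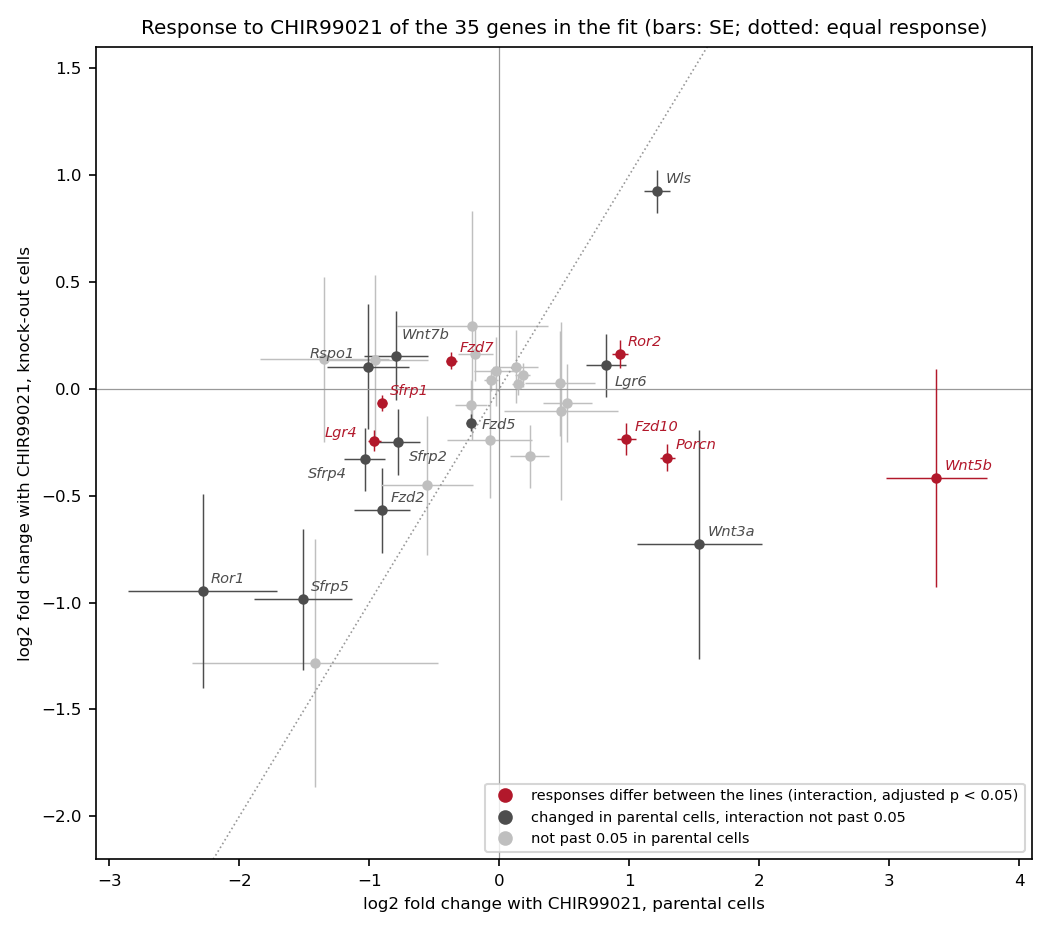
Log2 fold change with CHIR99021 in parental cells (horizontal) and in the knock-out (vertical) for the 35 genes in the fit, with SE bars; the dotted line marks equal responses and red marks an adjusted p under 0.05 for their difference. Wls is the one gene high on both axes, while Porcn, Fzd10, Ror2 and Wnt5b lie to the right near or below 0 on the vertical axis.

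With DMSO the 2 lines differed in 1 of the 35 genes, Porcn (2.86%, with 6.75% of all genes tested, 3.13% higher and 3.62% lower). Unadjusted p was under 0.05 for 8 of the 35, again without a share of all genes at that threshold, and is not read as an excess. Wnt9a, at 0.687 and 0.871 CPM in parental cells and 1.34 and 1.72 CPM in the knock-out, had a ratio of summed counts of 1.95 (95% interval 1.31 to 2.96, counting error only) and was not called. With CHIR99021 the lines differed in 13 of 35 (37.1%, with 23.7% of all genes), 7 higher in the knock-out (20%, with 11.2% of all genes) and 6 lower (17.1%, with 12.5% of all genes).

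Higher in the knock-out with CHIR99021 were Wnt7b (1.31 ± 0.23), Fzd1 (1.83 ± 0.47), Fzd7 (0.64 ± 0.04), Lgr4 (0.60 ± 0.05), Sfrp1 (0.71 ± 0.04), Sfrp2 (0.53 ± 0.17) and Sfrp4 (0.59 ± 0.16), as log2 fold changes with SE. Lower were Wnt5b (-3.55 ± 0.39), Porcn (-1.98 ± 0.06), Wnt3a (-1.90 ± 0.49), Fzd10 (-1.06 ± 0.07), Ror2 (-0.88 ± 0.06) and Ryk (-0.18 ± 0.05). Wnt5b entered the fit only through parental cells with CHIR99021, the high side here, so its test had to favour a difference. Fzd1 had few counts, at 0.153 and 0.293 CPM in parental cells with CHIR99021 and 0.746 and 0.850 CPM in the knock-out, and was at 0.472 and 0.664 CPM and 0.834 and 0.610 CPM with DMSO. Its call ended without the parental CHIR99021 replicate 1 (adjusted p = 0.117) or the knock-out CHIR99021 replicate 1 (0.0505) or 2 (0.0792). Wnt3a was lost without either parental CHIR99021 library (0.0774 and 0.0521) or the knock-out CHIR99021 replicate 1 (-1.34, adjusted p = 0.121). Ryk was lost without either parental CHIR99021 library (0.0684 and 0.0675) or the knock-out replicate 1 (0.133), and so was Sfrp4 (0.0512, 0.111 and 0.144). Sfrp2 was lost without any 1 of the 4 libraries with CHIR99021 (0.115 to 0.141) or the knock-out DMSO replicate 2 (0.0518).

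**Figure D5:**
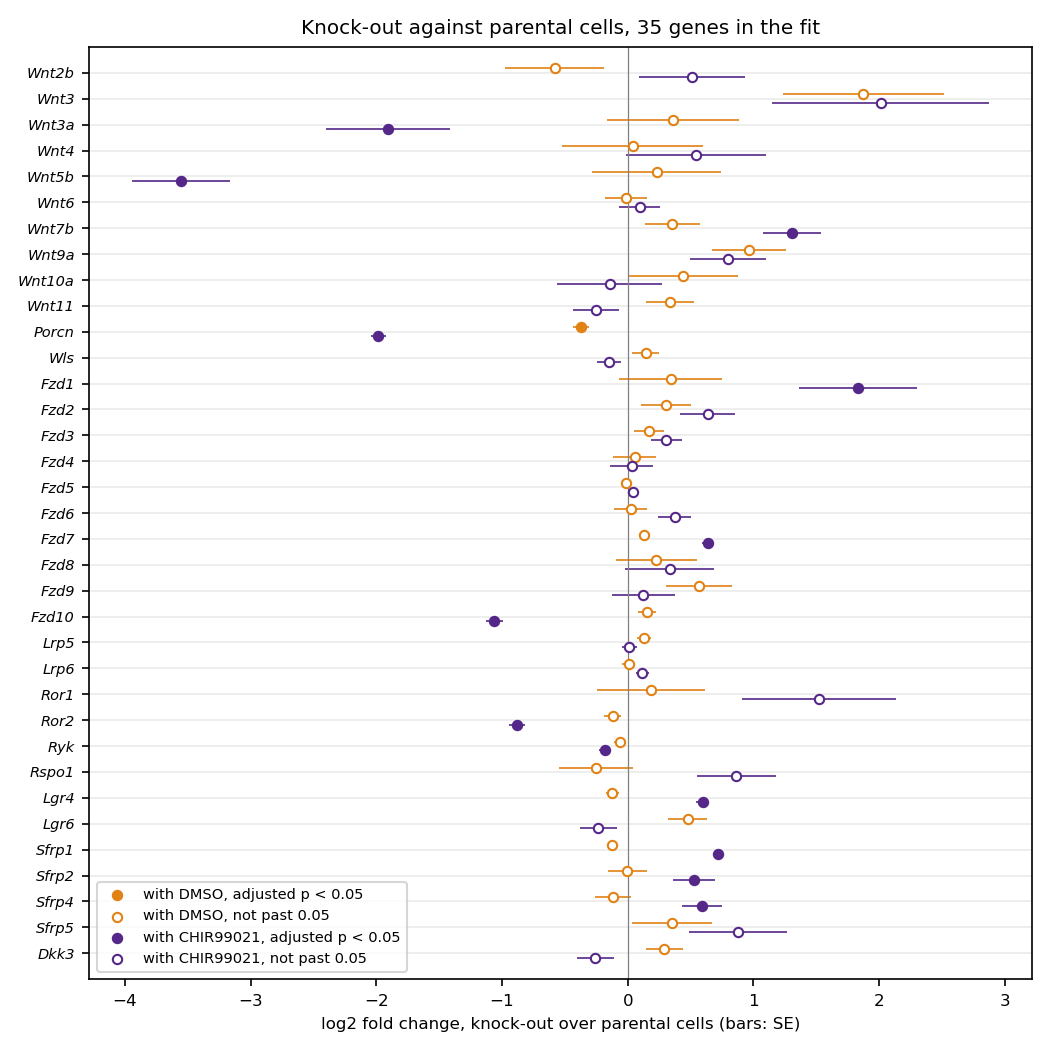
Log2 fold change of the knock-out over parental cells with DMSO (orange) and with CHIR99021 (violet) for the 35 genes in the fit, with SE bars; filled points passed an adjusted p of 0.05. With DMSO 1 point is filled, Porcn, and with CHIR99021 there are 13.

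A wider list of 67 genes around the receptors gave context, of which 59 were in the fit. In parental cells 16 were higher with CHIR99021 (27.1%, with 9.1% of all genes) and 6 lower (10.2%, with 10.3% of all genes). The 59 include 4 feedback genes listed only as a reference, Axin2, Sp5, Nkd1 and Nkd2, and 3 of these 4 were among the 16. Their part in these shares says nothing about the rest of the list. In the knock-out 5 were higher (8.47%, with 2.88% of all genes) and 4 lower (6.78%, with 4.18% of all genes). Axin2 and Sp5, which are common targets of β-catenin and were listed as a reference, rose in parental cells by 3.29 ± 0.09 and 6.46 ± 0.37 (adjusted p = 4.27e-09 and 4.76e-07). Sp5 was at 0.0355 to 0.191 CPM in the other 6 libraries and entered the fit only through the 2 parental libraries with CHIR99021, so its test had to favour a difference. In the knock-out Axin2 fell by 0.82 ± 0.12. The polarity gene Vangl1 was at 60.0 and 58.5 CPM in parental cells with DMSO and 41.2 and 40.4 CPM with CHIR99021 (-0.54 ± 0.05), and Celsr1, another polarity gene, went the other way (0.58 ± 0.06). In the class that serves Wls traffic and lipid supply, 4 of 13 genes were higher in parental cells, Scd1 by 0.40 ± 0.05, Scd2 by 0.21 ± 0.04, Tmed10 by 0.22 ± 0.04 and the sorting nexin Snx3 by 0.30 ± 0.06, and Mtmr6 was lower by 0.22 ± 0.06. Scd1 and Scd2 make the unsaturated fatty acids from which the Wnt lipid comes. The enzymes that remove Frizzled from the surface, Znrf3 and Rnf43, and Rnf146 were not called in any of the 5 comparisons. That does not show that they were unchanged. Rnf43 was at 0.945 and 0.539 CPM with DMSO and 1.84 and 1.46 CPM with CHIR99021 in parental cells (1.16 ± 0.41, adjusted p = 0.071). In the knock-out it was at 0.979, 0.496, 0.923 and 0.541 CPM.

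For CHIR99021 in the knock-out the lowest adjusted p of the wider list were those of Notum (-1.28 ± 0.12), a secreted enzyme that removes the Wnt lipid, Atp6ap2 (0.39 ± 0.05), Axin2 and Dact2 (0.37 ± 0.06). With DMSO 3 genes were higher in the knock-out (5.08%, with 3.13% of all genes) and 6 lower (10.2%, with 3.62% of all genes), led by Scd2 (-0.21 ± 0.04), Celsr2 (0.39 ± 0.08), Gpc3 (-0.62 ± 0.13) and Dact2 (-0.28 ± 0.06). With CHIR99021 6 were higher (10.2%, with 11.2% of all genes) and 15 lower (25.4%, with 12.5% of all genes), led by Axin2, Sp5, Scd2 (-0.57 ± 0.04) and Scd1 (-0.43 ± 0.05). The responses differed for 7 genes, all lower in the knock-out response (11.9%, with 2.91% of all genes): Axin2, Sp5, Scd2, Gpc4, Vangl2, Ptk7 and Notum. Axin2 and Sp5 are 2 of the 4 reference genes, and both also count among the 15 lower with CHIR99021.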

How the data were processed

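RNA was sequenced from TruSeq Stranded mRNA libraries of total RNA, 8 in all. Per the submitters' processing notes the tool was kallisto and the build GRCm38.p4; its version, transcript set, summing to genes and strand setting are not given in the sources used here. The authors deposited expected counts (estimated reads per Ensembl gene), not normalised, for 48440 genes. Columns were matched to libraries by title. The members and all lists were chosen with earlier results of these data known.

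After rounding to whole counts, filterByExpr (minimum count 10, minimum total 15) kept 17739 genes with 99.905% to 99.918% of the counts. edgeR 4.0.16 fitted a quasi-likelihood model with TMM scaling, 1 mean per group over all 8 libraries and 4 residual degrees of freedom, tested 2-sided with Benjamini-Hochberg adjustment over all genes at 0.05. The SE is a log2 fold change's size over the square root of F. The common biological coefficient of variation was 0.0532. Called genes, and genes at 5 CPM or more in some group, are given by library. Of the wider list Axin2 and the 4 genes with the lowest adjusted p of each comparison are named. Other genes, such as Wnt6, Wnt9a, Wnt11, Snx3 and Znrf3, were named after their values were seen. Coordinates and exon lengths come from GENCODE M21 (GRCm38), matched for all 51 members. Intervals for few counts are exact binomial at 95%. The procedure was tested on simulated data. Correlations of replicate differences between groups ran from -0.056 to 0.104, so replicate numbers were not taken to pair libraries. Alternatives were DESeq2 1.42.0, RLE size factors, no filter beyond 1 read, the compared groups alone, a replicate block and leaving out each library. Protein sequences were not used here.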

Additional observations from a re-analysis of the deposited data

Results flagged for a closer look

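For 14 genes of the 2 lists the response to CHIR99021 differed between the lines by the interaction test of edgeR (adjusted p under 0.05, knock-out minus parental log2 fold change). They were 7 of the 35 genes (20%) and 7 of the 59 of the wider list (11.9%). Over all genes tested 1087 of 17739 passed (6.13%). Axin2 and Sp5, listed only as a reference, are among the 14. The differences were -3.78 for Wnt5b, -1.61 for Porcn, -1.21 for Fzd10 and -0.76 for Ror2, and 0.50 for Fzd7, 0.72 for Lgr4 and 0.84 for Sfrp1. In the wider list they were -8.12 for Sp5, -4.11 for Axin2, -0.76 for Notum, -0.75 for Gpc4, -0.37 for Scd2, -0.35 for Vangl2 and -0.30 for Ptk7. The Sp5 value rests on levels of 0.0355 to 0.191 CPM in the 6 libraries where Sp5 was low. Wnt5b and Sp5 entered the fit only through parental cells with CHIR99021, so their tests had to favour a difference.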

How the results depend on the processing

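The replicate block left the number of the 35 genes called at 18, 4, 1, 13 and 7 in the 5 comparisons, with the same genes as without it. The compared groups alone gave 2 instead of 4 for CHIR99021 in the knock-out, where Fzd5 and Porcn were lost, and DESeq2 gave 8 instead of 13 for the lines with CHIR99021, where Ryk, Sfrp2 and Sfrp4 were lost and Fzd1 and Wnt3a had no adjusted p. In parental cells DESeq2 lost Fzd2, Rspo1, Wnt3a and Wnt7b and gave no adjusted p for Ror1, and the compared groups alone lost Rspo1 and Wnt7b. The cause was not tested. The share of all genes called was also lower with DESeq2 and with the compared groups alone. By DESeq2 it was 12.4% in parental cells, against 19.4% as fitted above, and 15.3% for the lines with CHIR99021, against 23.7%. With the compared groups alone it was 5.15% for CHIR99021 in the knock-out, against 7.06%. Leaving out a library of a compared group also lowered it. The exception was the knock-out DMSO replicate 2, for CHIR99021 in the knock-out and for the difference between responses. Leaving out 1 library gave 12 to 17 genes for CHIR99021 in parental cells, 1 to 3 in the knock-out (1 without the knock-out DMSO replicate 1 or either knock-out library with CHIR99021), 1 for the lines with DMSO, 8 to 15 for the lines with CHIR99021 (8 without the parental or knock-out CHIR99021 replicate 1), and 7 or 8 for the difference between responses; there the lone library is assumed to vary like those of other groups. Over 51 pairs of a gene and a comparison, 649 recomputed values kept their direction; 563 also kept their side of the threshold, 69 lost a call and 17 gained one. Porcn, Wls, Wnt5b, Fzd5, Fzd7, Fzd10, Ror2, Lgr4, Lgr6, Sfrp1 and Sfrp4 kept their parental call in all 13 alternatives; DESeq2 gave no adjusted p for the difference of responses of Wnt5b. For Wnt5b, which entered the fit only through parental cells with CHIR99021, keeping the call is no support for it. Depth limits the 21 tested genes under 5 CPM, where few counts give wide errors.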
